A study of Mus musculus with 12 samples.

Results

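The genes described here make, break down and read out cyclic AMP and cyclic GMP: the adenylyl and guanylyl cyclases, the phosphodiesterases, the subunits of cAMP-dependent protein kinase (PKA), cGMP-dependent protein kinase (PKG), the A-kinase anchoring proteins (AKAPs) and the Rapgef exchange factors. They were chosen by symbol, as every gene named Adcy, Gucy, Pde, Prkac, Prkar, Prkg, Akap or Rapgef with its number. No measured value entered this rule, but earlier results of these data were known when the set was chosen. Of 73 such symbols in the gene table, 62 were matched to probes, out of 25128 genes and unnamed targets on the array. The 62 were 10 adenylyl cyclases, 6 guanylyl cyclases, 23 phosphodiesterases, 2 catalytic and 4 regulatory subunits of PKA, 2 PKG genes, 10 AKAPs and 5 Rapgef genes. Akap5, Akap6, Akap11, Akap13, Akap17b, Gucy1a2, Gucy2d, Gucy2g, Pde11a, Rapgef2 and the antisense RNA Rapgef3os2 were not analysed here.

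RNA was measured under basal conditions, without any treatment, in 3 immortalized mouse lines labelled AtT20 (an ACTH-secreting line of the anterior pituitary), BV2 (a microglial line) and N18 (a neuroblastoma line). Each line was grown as 4 plates, each extracted on its own and hybridized to 1 single-color NimbleGen array, so there were 12 arrays. No genetic change was made for the study and the 3 lines shared 1 culture medium, with the BV2 cells kept in conditions that favour a resting state. Each line is 1 established culture, so the spread between plates is that of 1 culture grown 4 times, and a transcript present in fewer cells cannot be told apart from one at a lower level per cell.

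The question was which members of the pathway each line transcribes, and where the lines differ. Levels are on the log2 scale: the probes of a gene were averaged and the average of 10 seminal proteins, which the study took as zero expression, was subtracted plate by plate. A gene counted as above the threshold when its mean over the 4 plates exceeded 2 SD of the seminal proteins, which was 0.37 ± 0.11 for AtT20, 0.56 ± 0.15 for BV2 and 0.74 ± 0.10 for N18 (log2, mean ± SD over plates, n = 4). The intensities contain background, so that low levels and differences are compressed, and 2 genes are not compared with each other in level because their probes may bind differently.

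The plates labelled AtT20 stood apart from the others. Their array medians were 10.85 to 11.50 and the interquartile ranges over probes only 0.38 to 0.78 (log2), against interquartile ranges of 1.28 to 1.73 for BV2 and 1.91 to 2.21 for N18. Of the corticotroph markers, Pomc, Tbx19 and Pcsk1, which define the cell type, were not above the threshold on the plates labelled AtT20. Of 11 microglial markers 8 were above it in BV2 (Aif1, C1qa and Cx3cr1 were not), and of 13 neuroblastoma markers 12 were above it in N18 (Nefl was not). Of the neuroblastoma markers 6 of 13 were also above it in BV2 and 8 on the plates labelled AtT20, of the microglial markers 3 of 11 in N18 and 1 in AtT20, and of 6 fibroblast markers 3 in N18, 2 in BV2 and 3 in AtT20. These libraries are therefore called by their label, N18 is compared with BV2 first, and the comparisons with AtT20 follow. Which plates shared a slide is not known here, so slide and line cannot be told apart.

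Cyclic AMP is made from ATP by adenylyl cyclases, most of which sit in the plasma membrane and are driven or held back by G proteins, and it is broken down by phosphodiesterases. It binds the regulatory subunits of PKA and so frees the catalytic subunits, which AKAPs hold close to their substrates, and it binds the EPAC proteins, which are encoded by Rapgef3 and Rapgef4 and activate the small GTPase Rap. Cyclic GMP is made by the soluble, nitric oxide-sensitive guanylyl cyclase and by membrane guanylyl cyclases, and it acts through PKG, ion channels and some phosphodiesterases. In nerve cells the pathway is known for its part in transmission and plasticity, and in macrophages and microglia cAMP is known to hold back inflammatory responses.

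PKA phosphorylates CREB, which binds the cAMP response element, TGACGTCA, so the promoters of the members were searched for it. Windows of 250 bases before a gene's start were taken from RefSeq (GRCm38.p6) and were present for 50 of the 62 members, as 94 windows. The whole element, which reads alike on both strands, was present in 1 of the 94 windows (1.06%), against 1.55% of 32851 windows of all genes. Its shorter form TGACG, on either strand and contained in the whole element, was present in 17 of the 94 (18.1%), against 17.8% of all windows. The share in the members was thus near that of all promoters. The 3 stretches below are shown because they hold the one whole element, in Prkar1a, and the shorter form in the members with the largest difference in each direction among those that have it, Gucy1b1 (higher in N18 than BV2) and Adcy7 (lower). Capitals mark the match, and each stretch is written 5′ to 3′ on the strand of its gene.
Prkar1a, chr11:109650854-109650948, plus strand: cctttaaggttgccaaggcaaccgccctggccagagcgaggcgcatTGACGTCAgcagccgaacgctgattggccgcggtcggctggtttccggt
Gucy1b1, chr3:82074712-82074785, minus strand: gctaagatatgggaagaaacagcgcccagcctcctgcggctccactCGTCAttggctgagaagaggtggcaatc
Adcy7, chr8:88282918-88282991, plus strand: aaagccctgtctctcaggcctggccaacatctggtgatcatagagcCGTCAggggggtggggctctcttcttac
The match begins 49 bases before the start in 1 of the 6 windows of Prkar1a, and 28 bases before it in Gucy1b1 and in a window of Adcy7. These are matches of letters, and binding was not measured.

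In N18, 37 of the 62 members were above the threshold (59.7%, against 55.4% of all 25128 genes and targets). In BV2 it was 28 (45.2%, against 53.3%), and on the plates labelled AtT20 it was 26 (41.9%, against 35.0%). The median level of the members above the threshold was 2.08 in N18, 1.65 in BV2 and 0.70 in AtT20 (log2). The calls in N18 and BV2 rested on all 4 plates for 33 and 25 members and on at least 2 probes for 35 and 24 members. On the plates labelled AtT20 they rested on all 4 plates for 14 members and on at least 2 probes for 11, and 13 of the 26 lay within 1 SD of the threshold.

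**Figure D1:**
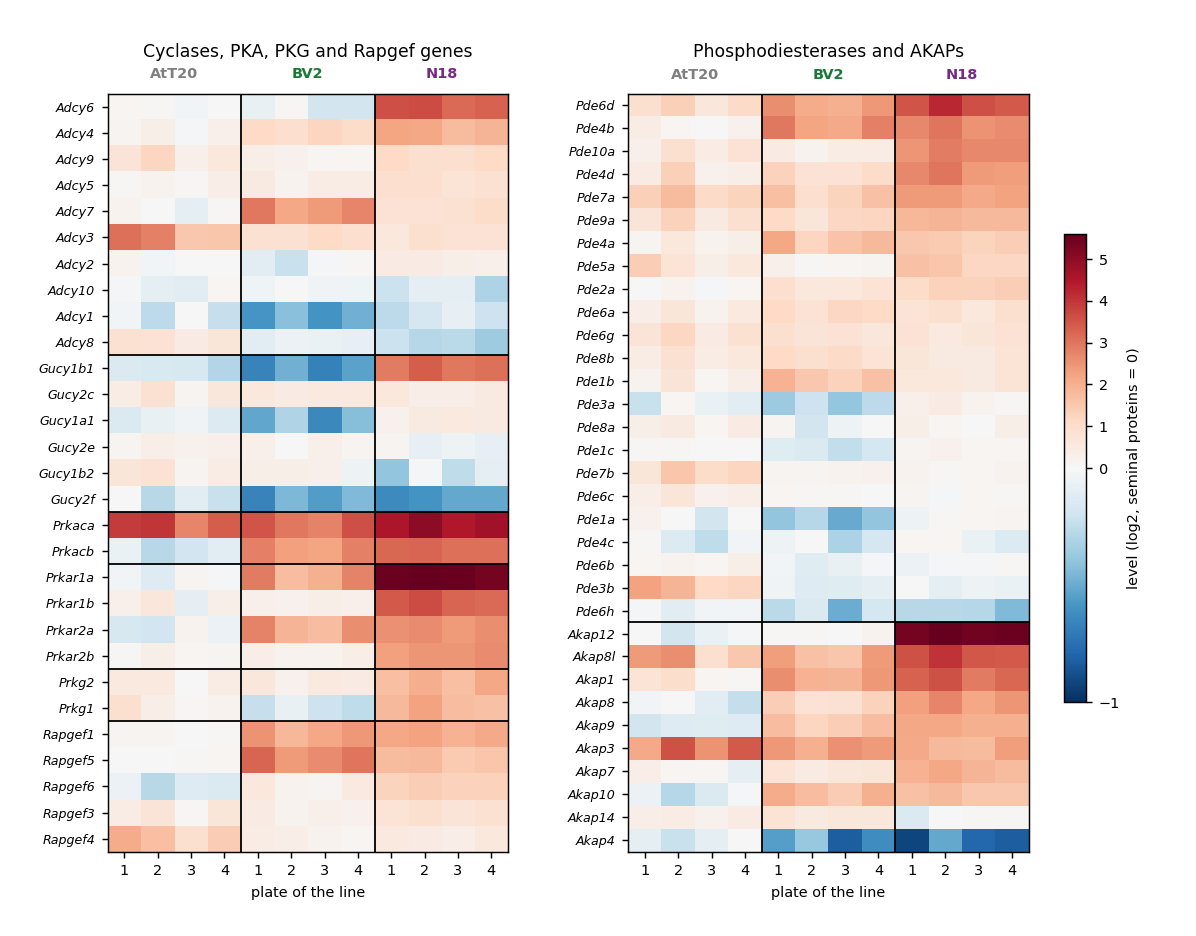
Level of each of the 62 members on each of the 12 plates (log2, with the seminal proteins of each plate at 0; columns are plates 1 to 4 of each line, rows are genes grouped by family and ordered by their N18 mean). Blue is below 0 and red above it, and the 2 sides are scaled separately; the N18 plates hold the highest levels, in Prkar1a and Akap12, and most rows are pale on the plates labelled AtT20.

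The 3 lines shared 10 members above the threshold, namely Adcy3, Prkaca, Pde4d, Pde6a, Pde6d, Pde7a, Pde9a, Akap1, Akap3 and Akap8l. Some of these calls were close. In N18, Adcy3 (0.79, with 1 of 3 probes above) and Pde6a (0.79, with 2 of 4 plates above) lay near the threshold of 0.74. On the plates labelled AtT20, Akap1 (0.47) and Pde6a (0.45) were above it on 2 of 4 plates and Pde4d (0.60) on 3 of 4. Akap1, Akap3, Pde4d and Pde7a rested there on 1 of 3 probes, as did Pde9a in BV2. BV2 and N18 shared a further 14, among them Adcy4, Adcy7, Prkacb, Prkar1a, Prkar2a, Pde2a, Pde4a, Pde4b, Akap7, Akap8, Akap9 and Akap10. Above the threshold in N18 and in neither other line were Adcy5, Adcy6, Gucy1b1, Prkar1b, Prkar2b, Akap12 and Rapgef6, which is 7 members, and in BV2 alone it was Pde1b. The AtT20 plates had 7 of their own (Adcy8, Gucy1b2, Gucy2c, Pde3b, Pde6c, Pde7b and Rapgef4), shared 6 with N18 (Adcy9, Pde5a, Pde10a, Prkg1, Prkg2 and Rapgef3) and 3 with BV2 (Akap14, Pde6g and Pde8b). Gucy2c, Prkg2 and Pde8b were lower in AtT20 than in a line where they were below the threshold. The lower AtT20 threshold put them here. Gucy2c was at 0.51 in AtT20 and 0.54 in BV2, Prkg2 at 0.38 and 0.47, and Pde8b at 0.58 in AtT20 and 0.61 in N18. The others were higher in AtT20 than in each line where they were below the threshold. Of these, Gucy1b2 (0.51), Pde6c (0.42), Rapgef3 (0.45), Prkg1 (0.38) and Akap14 (0.38) passed the AtT20 threshold but not that of BV2 (0.56). The remaining 14 members were below the threshold in every line. These included the neural, calmodulin-stimulated Adcy1, the bicarbonate-sensitive Adcy10, the retinal cyclases Gucy2e and Gucy2f, the cone subunit Pde6h and the sperm tail protein Akap4. The shares of all genes and targets with each of these patterns were not computed, so no pattern is read as particular to the members. Being above a threshold in one line and below it in another is not a test of a difference, and the tests follow.

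N18 was higher than BV2 in the scaffold Akap12, the nitric oxide-sensitive cyclase subunit Gucy1b1, the cyclase Adcy6, 3 of the 4 regulatory subunits of PKA, Prkg1, Pde10a, Pde4d and Akap8l, and BV2 was higher in the cyclase Adcy7, the exchange factor Rapgef5 and Pde1b. Of the catalytic subunits of PKA, Prkaca was higher in N18 by 0.86 after quantile normalization and by 1.47 relative to the seminal proteins, and Prkacb was not called. Differences between lines are log2 values after quantile normalization of the 8 arrays of the pair, which is another scale than that of the levels, and they were tested with limma across all 25128 genes and targets. Of the 62 members, 50 were called at an adjusted p under 0.05. The 30 called higher in N18 were 48.4% of the members (25.8% of all genes and targets were called higher), and the 20 called lower were 32.3% (36.1% of all). With a difference of at least 1 and a level above the threshold in at least 1 of the lines, 10 were higher (16.1%, against 7.08% of all) and 3 lower (4.84%, against 5.40%). The median difference was 0.13 over the members and -0.08 over all genes. The split of the smaller calls moved with the scaling: without normalization 32 members were higher and 5 lower, and relative to the seminal proteins 34 and 8, while the median of all genes moved to 0.15 and 0.18 and the share of higher among all calls from 41.7% to 76.3% and 73.6%. The 13 members past a difference of 1 kept their direction and their call under each of the 17 alternatives that were run. Of the 35 called members that were neither among these nor subunits of PKA, 10 kept theirs under all and 25 did not.

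**Figure D2:**
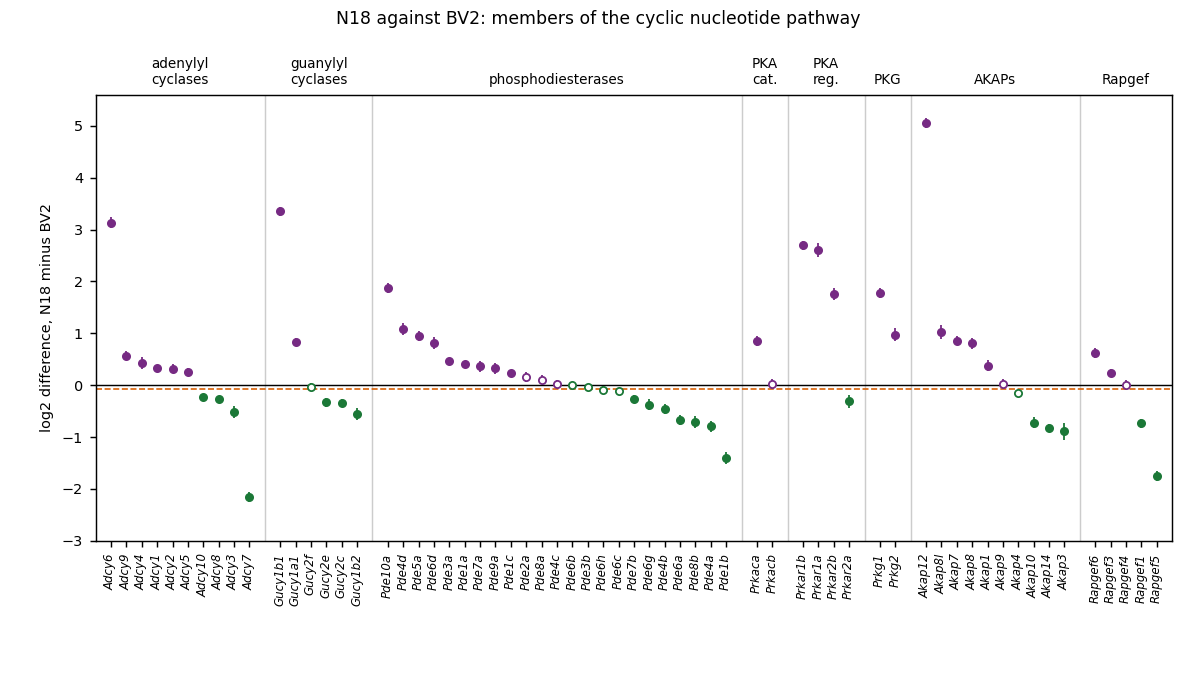
Difference between N18 and BV2 for each of the 62 members (log2, N18 minus BV2, after quantile normalization; points are differences of the means of 4 plates, bars are ± 1 SE, filled points were called at an adjusted p under 0.05). The dashed line is the median of all genes (-0.08). Akap12 lies highest at 5.06 and Adcy7 lowest at -2.16, and 3 of the 4 regulatory subunits of PKA lie above 1.

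The adenylyl cyclase genes that were high differed between the 2 lines. Adcy6, a cyclase that is inhibited by Gi proteins and by calcium, had levels of 3.60, 3.64, 3.17 and 3.30 in N18, -0.08, 0.09, -0.18 and -0.18 in BV2 and 0.09, 0.08, -0.02 and 0.02 on the plates labelled AtT20. Only the N18 plates were above the threshold and they did not overlap with the others. The difference between N18 and BV2 was 3.13 ± 0.11 (SE; limma, adjusted p = 1.21e-11), and Adcy6 was at least 5.2-fold higher in N18, a lower bound taken from the threshold of BV2 as the smallest of 3 scalings. Such bounds are point estimates without an error term, and they do not cover the other alternatives that were run. All 3 probes were higher in N18, by 2.83 to 3.64.

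Adcy7, a cyclase that is common in cells of the blood and immune system, went the other way. Its levels were 2.95, 2.17, 2.40 and 2.73 in BV2, 0.79, 0.81, 0.86 and 1.01 in N18 and 0.21, 0.01, -0.09 and 0.06 on the plates labelled AtT20. Every BV2 plate was higher than every plate of the other lines. The difference of N18 from BV2 was -2.16 ± 0.10 (SE; limma, adjusted p = 1.73e-10), and each of the 9 probes was lower in N18. In N18 Adcy7 still lay above the threshold of 0.74, at 0.87 ± 0.10 (SD, n = 4), but with only 3 of 4 plates and 4 of 9 probes above it.

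All 10 adenylyl cyclases were called in this comparison, 6 higher and 4 lower in N18, but past a difference of 1 there were only Adcy6 and Adcy7. Of all genes and targets 25.8% were called higher and 36.1% lower, and the cyclases are few. Adcy4, which like Adcy7 is stimulated by G protein βγ subunits, was above the threshold in both lines, at 2.01 in N18 and 1.06 in BV2, and differed by 0.43. Adcy3, a calcium-sensitive cyclase best known from olfactory neurons, differed by -0.52, which was -0.18 without normalization and -0.15 relative to the seminal proteins and was not called under either. The N18 levels of Adcy5 (0.87) and Adcy9 (1.03, through 1 of 3 probes) were modest, and Adcy1, Adcy2, Adcy8 and Adcy10 were below the threshold in both lines.

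Of the guanylyl cyclases, a subunit of the soluble enzyme was high in N18. Gucy1b1, the β1 subunit that carries the heme which senses nitric oxide, had levels of 2.91, 3.39, 2.96 and 3.08 in N18, -0.67, -0.48, -0.68 and -0.54 in BV2 and -0.15, -0.15, -0.16 and -0.29 on the plates labelled AtT20. It was above the threshold on every N18 plate and on no other plate. The difference from BV2 was 3.35 ± 0.09 (SE; limma, adjusted p = 8.40e-13), or at least 4.1-fold higher. The α1 subunit Gucy1a1, with which it forms the enzyme, was below the threshold in N18, at 0.23, 0.50, 0.54 and 0.51, and in BV2, at -0.52, -0.30, -0.64 and -0.42. Its difference was 0.83 ± 0.08 (SE; limma, adjusted p = 5.33e-07) in the same direction, between levels that were both below their thresholds. Gucy1a2, the other α subunit, was not analysed here. The receptor cyclases Gucy2c, Gucy2e and Gucy2f were below the threshold in both lines.

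**Figure D3:**
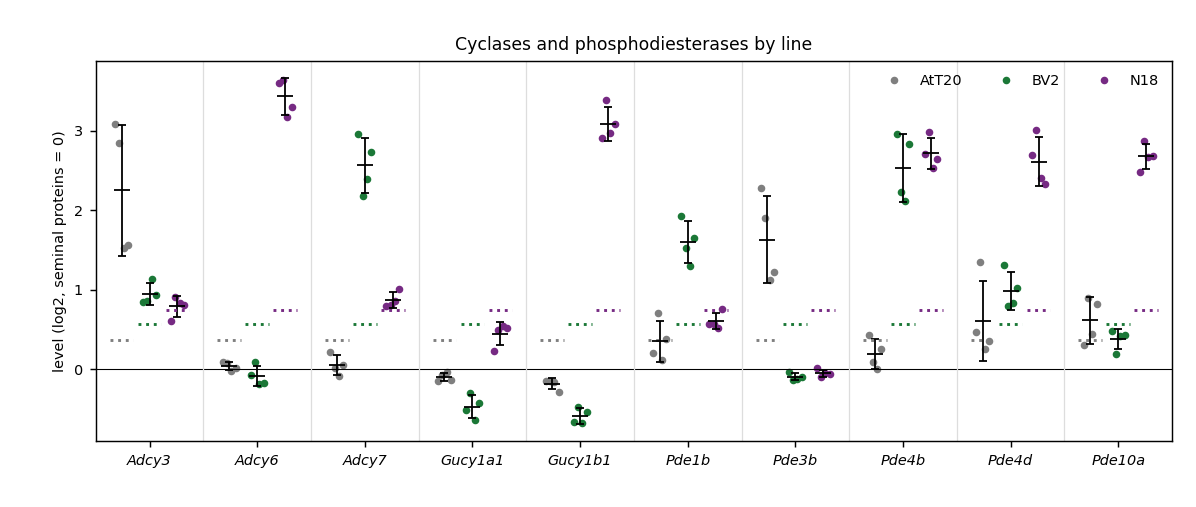
Levels of 5 cyclases and 5 phosphodiesterases by line (log2, with the seminal proteins at 0; points are plates, black bars are the mean ± SD of 4 plates, dotted lines are the threshold of the line). Adcy6, Gucy1b1 and Pde10a stand high in N18, Adcy7 and Pde1b in BV2, and the AtT20 points of Adcy3 and Pde3b spread widely, from 1.53 to 3.08 and from 1.12 to 2.27.

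Of the regulatory subunits of PKA 3 of 4 were higher in N18 by more than 1 after quantile normalization. Of all genes and targets, 7.08% were called higher by at least 1 and above the threshold in at least 1 line. Prkar1a, the widely expressed RIα subunit, had levels of 5.48, 5.78, 5.55 and 5.35 in N18, 2.92, 1.71, 1.98 and 2.77 in BV2 and -0.03, -0.13, 0.17 and -0.02 on the plates labelled AtT20. The 3 lines did not overlap, and Prkar1a was below the threshold in AtT20. The difference between N18 and BV2 was 2.61 ± 0.13 (SE; limma, adjusted p = 5.91e-10), and the 3 probes gave 2.50 to 2.91. This is the gene whose promoter holds the whole cAMP response element printed above.

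Prkar1b, the RIβ subunit known from the nervous system, had levels of 3.44, 3.67, 3.28 and 3.19 in N18 against 0.30, 0.24, 0.33 and 0.27 in BV2. The difference was 2.69 ± 0.09 (SE; limma, adjusted p = 1.42e-11), at least 5.1-fold higher in N18. Prkar2b, the RIIβ subunit of brain, fat and endocrine tissue, had levels of 2.30, 2.45, 2.46 and 2.66 in N18 and 0.37, 0.21, 0.21 and 0.37 in BV2. The difference was 1.76 ± 0.11 (SE; limma, adjusted p = 6.73e-09), at least 2.7-fold higher over the 3 scalings. Over all 17 alternatives the differences went down to 2.27 for Prkar1b and 1.33 for Prkar2b, which is below these bounds. Both β forms were thus above the threshold in N18 only.

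Prkar2a, the widely expressed RIIα subunit, behaved otherwise. Its levels were 2.58, 2.66, 2.40 and 2.60 in N18 and 2.77, 1.89, 1.74 and 2.60 in BV2, and the plates of the 2 lines overlapped. The difference was -0.31 ± 0.13 (SE; limma, adjusted p = 0.0493), just inside the limit of a call. It was 0.28 without normalization and 0.31 relative to the seminal proteins, and the call was kept under only 6 of the 17 alternatives, so no difference of Prkar2a is read from these data.

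The catalytic subunits were present in both lines. Prkaca, the Cα subunit, had levels of 4.53, 5.00, 4.50 and 4.70 in N18, 3.53, 2.94, 2.78 and 3.62 in BV2 and 3.92, 4.01, 2.72 and 3.39 on the plates labelled AtT20. It was well above the threshold on all 12 plates, and in N18 it was higher than in BV2 by 0.86 ± 0.09 (SE; limma, adjusted p = 2.65e-06). Without normalization this difference was 1.44 and relative to the seminal proteins 1.47. Prkacb, the Cβ subunit, had levels of 3.23, 3.27, 3.10 and 3.07 in N18, 2.83, 2.28, 2.20 and 2.81 in BV2 and -0.06, -0.28, -0.19 and -0.11 on the plates labelled AtT20. Its difference between N18 and BV2 was 0.02 ± 0.10 (SE; limma, adjusted p = 0.89) and was not called. Without normalization it was 0.61 (adjusted p = 0.00855) and relative to the seminal proteins 0.64 (adjusted p = 0.0151), so whether Prkacb differs depends on the scaling.

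Both PKG genes were called higher in N18 than in BV2, as were 25.8% of all genes and targets. Prkg1, the PKG of smooth muscle and of some neurons, was measured by 6 probes, with levels of 1.81, 2.25, 1.73 and 1.66 in N18, -0.23, -0.07, -0.21 and -0.25 in BV2 and 0.90, 0.36, 0.08 and 0.19 in AtT20. The difference between N18 and BV2 was 1.77 ± 0.10 (SE; limma, adjusted p = 1.69e-09), at least 1.8-fold higher, and 5 of the 6 probes separated the plates of the 2 lines. Prkg2, the membrane-bound PKG, had levels of 1.67, 2.01, 1.67 and 2.19 in N18 and 0.62, 0.25, 0.54 and 0.46 in BV2. Its difference was 0.97 ± 0.12 (SE; limma, adjusted p = 1.36e-05), just short of 1, and at least 1.8-fold higher.

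**Figure D4:**
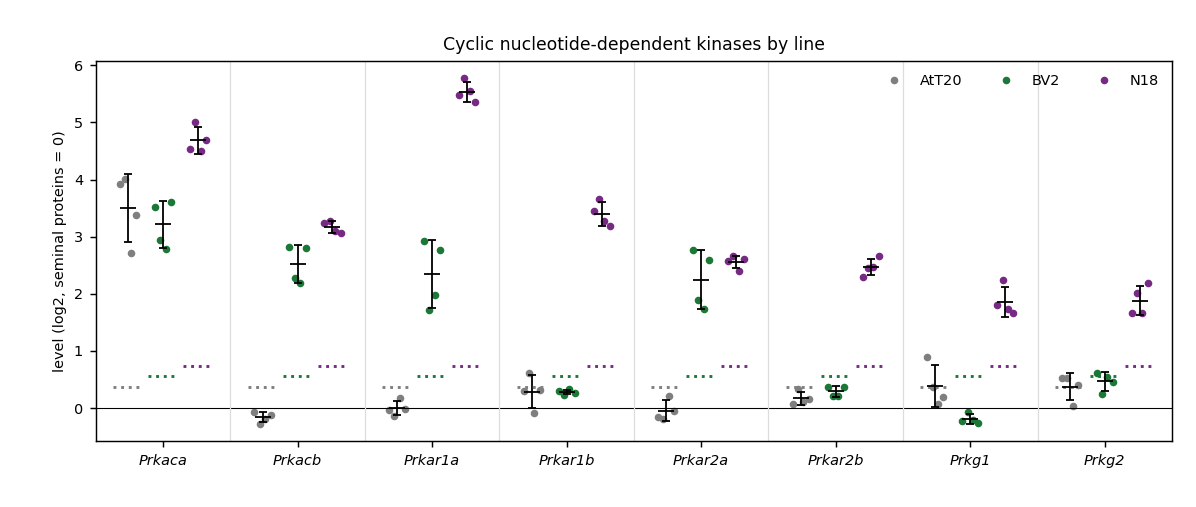
Levels of the 6 subunits of PKA and of the 2 PKG genes by line (log2, with the seminal proteins at 0; points are plates, black bars are the mean ± SD of 4 plates, dotted lines are the threshold of the line). Prkaca is above the threshold on every plate, Prkar1b, Prkar2b and Prkg1 are high in N18, and Prkacb, Prkar1a and Prkar2a lie near 0 on the plates labelled AtT20.

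Among the 23 phosphodiesterases, 10 were above the threshold in N18 (43.5%, against 55.4% of all genes and targets) and 11 in BV2 (47.8%, against 53.3%). Pde10a, a dual phosphodiesterase of cAMP and cGMP best known from the striatum, had levels of 2.48, 2.87, 2.67 and 2.68 in N18 and 0.48, 0.19, 0.42 and 0.43 in BV2. The groups did not overlap, and the difference was 1.88 ± 0.10 (SE; limma, adjusted p = 1.57e-09), at least 3.1-fold higher in N18. Pde4d, one of the cAMP-specific enzymes that rolipram inhibits, had levels of 2.69, 3.00, 2.40 and 2.33 in N18 and 1.31, 0.79, 0.83 and 1.02 in BV2. It was above the threshold in both lines and differed by 1.09 ± 0.11 (SE; limma, adjusted p = 1.26e-06). Pde5a, the cGMP-specific enzyme that sildenafil inhibits, was above the threshold in N18 at 1.38 and below it in BV2 at 0.15, with a difference of 0.94 ± 0.09 (SE; limma, adjusted p = 9.99e-07).

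Pde1b was the 1 phosphodiesterase past a difference of 1 in the other direction. This enzyme, activated by calcium and calmodulin, had levels of 1.93, 1.53, 1.30 and 1.65 in BV2 and 0.57, 0.57, 0.52 and 0.75 in N18. The difference of N18 from BV2 was -1.40 ± 0.11 (SE; limma, adjusted p = 9.50e-08), and Pde1b was at least 1.8-fold higher in BV2. Its relatives Pde1a and Pde1c were below the threshold in every line.

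The other PDE4 genes differed by less than 1. Pde4b, which is known to be induced in activated myeloid cells, was high in both lines, at 2.70, 2.99, 2.53 and 2.64 in N18 and 2.96, 2.22, 2.12 and 2.83 in BV2. Its difference of -0.46 ± 0.10 (SE; limma, adjusted p = 0.00166) turned to 0.15 without normalization and 0.18 relative to the seminal proteins, where it was not called, so its direction depends on the scaling. Pde4a was at 1.41 in N18 and 1.70 in BV2 and differed by -0.79, but by -0.32 without normalization and -0.29 relative to the seminal proteins, where it was not called. Pde4c was below the threshold in all lines. Pde6d, a carrier of prenylated proteins rather than an enzyme, was at 3.69 and 2.27, with a difference of 0.81. Pde6a, the catalytic subunit of the rod photoreceptor, was above the threshold in all 3 lines, with 2 of its 3 probes, at 0.79 in N18, 1.05 in BV2 and 0.45 in AtT20. The cGMP-specific Pde9a was at 1.85, 1.04 and 0.85 in the same order. Pde3a was below the threshold in every line and Pde3b below it in N18 and BV2.

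Of the AKAPs, 8 of 10 were above the threshold in N18 and 8 in BV2, and 7 of these were shared. Of all genes and targets, 55.4% were above it in N18 and 53.3% in BV2. Akap12, a scaffold beneath the plasma membrane that is also called gravin, carried the largest difference of all members. Its levels were 5.36, 5.70, 5.40 and 5.48 in N18, 0.06, 0.08, 0.01 and 0.19 in BV2 and 0.03, -0.18, -0.07 and -0.01 on the plates labelled AtT20, so it was close to the seminal proteins outside N18. The difference from BV2 was 5.06 ± 0.09 (SE; limma, adjusted p = 5.09e-14), at least 22.7-fold higher in N18, and the 3 probes gave 4.05 to 6.11. Akap8l, a nuclear relative of the nuclear anchoring protein Akap8, had levels of 3.55, 4.05, 3.48 and 3.41 in N18 and 2.36, 1.62, 1.53 and 2.39 in BV2. It was above the threshold in both and differed by 1.03 ± 0.13 (SE; limma, adjusted p = 1.03e-05).

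The remaining AKAPs were spread over both directions. Akap8 differed by 0.81 and Akap7 by 0.85, both higher in N18. Akap1, which anchors PKA at mitochondria, was at 3.24 in N18 and 2.22 in BV2 and differed by 0.38, a call that was lost with the median of the probes (0.093) and with all 12 arrays in 1 fit (0.37). Akap9, of the Golgi and centrosome, was at 2.08 and 1.51 and was not called, with a difference of 0.02 ± 0.09 (SE; limma, adjusted p = 0.851). Akap10 was lower in N18 by the fit (-0.72), as was Akap3 (-0.89). Neither was called without normalization (-0.23 and -0.36), relative to the seminal proteins (-0.20 and -0.33) or with the median of the probes (-0.20 and -0.12). Akap3 belongs to the fibrous sheath of the sperm tail, and it was above the threshold with all 3 probes in BV2 and N18. Akap4, its partner in the sheath, was below the threshold in every line. Akap14, of cilia and sperm, was at 0.0014 in N18 and at 0.63 in BV2, just above the threshold there. It was called lower in N18 and kept this call under all 17 alternatives. Its 3 probes differed by -1.08 to -0.54, and each separated the plates of the 2 lines.

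Among the exchange factors, the EPAC genes lay near or below the threshold in N18 and BV2. Rapgef3 was at 0.81 in N18, just above the threshold, and at 0.30 in BV2, and Rapgef4 was below the threshold in both lines. Rapgef5, an activator of Rap and related GTPases, had levels of 3.28, 2.37, 2.66 and 2.99 in BV2 and 1.75, 1.82, 1.45 and 1.55 in N18, against 0.03, 0.03, 0.05 and 0.13 on the plates labelled AtT20. The 3 lines did not overlap. N18 differed from BV2 by -1.76 ± 0.10 (SE; limma, adjusted p = 1.62e-09), and the 3 probes gave -2.39 to -1.04. Rapgef1, which is coupled to tyrosine kinases through adaptor proteins, was at 2.11 and 2.24 and differed by -0.73, but by -0.16 without normalization and -0.13 relative to the seminal proteins, where it was not called. Rapgef6 was above the threshold in N18 only, with a difference of 0.62.

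A list of 74 further genes of the pathway was examined beside the members, of which 71 were measured. The list was chosen with earlier results of these data known, so its shares beside those of all genes are descriptive and not a test. In N18 against BV2, 28 were called higher (39.4%, against 25.8% of all genes and targets) and 23 lower (32.4%, against 36.1%). Past a difference of 1 and above the threshold in at least 1 line there were 14 higher (19.7%, against 7.08% of all) and 9 lower (12.7%, against 5.40%), and the median difference was near 0 (-0.0040). The split of the calls in this list moved with the scaling too, to 30 higher and 11 lower without normalization and 36 and 12 relative to the seminal proteins. Wasf1, an actin regulator of neurons that binds PKA, had levels of 4.29, 4.76, 4.35 and 4.33 in N18 and 0.95, 0.34, 0.45 and 0.77 in BV2 and differed by 3.35 ± 0.11 (SE; limma, adjusted p = 1.00e-11). Map2, a dendritic microtubule protein that anchors PKA, had levels of 1.23, 1.49, 1.41 and 1.43 in N18 and -0.35, -0.23, -0.66 and -0.43 in BV2 and differed by 1.58 ± 0.09 (SE; limma, adjusted p = 1.66e-09). Of the 8 measured genes of the list of other anchoring proteins, 5 were called higher in N18 (62.5%, against 25.8% of all). The 2 called lower were 25% (36.1% of all), and relative to the seminal proteins the counts were 5 and 0.

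The nitric oxide synthases and receptor guanylyl cyclases of the list were 6 genes. In N18, 4 were called higher (66.7%, against 25.8% of all genes and targets) and 2 lower (33.3%, against 36.1%). Nos1, the neuronal nitric oxide synthase, had levels of 3.84, 3.94, 3.39 and 3.29 in N18 and 0.38, 0.37, 0.23 and 0.16 in BV2 and differed by 2.89 ± 0.12 (SE; limma, adjusted p = 1.30e-10), at least 5.9-fold higher in N18. Nos2, the inducible synthase of macrophages, had levels of 3.80, 3.06, 2.99 and 3.62 in BV2 and 0.94, 0.84, 0.59 and 0.96 in N18 and differed by -3.02 ± 0.10 (SE; limma, adjusted p = 9.13e-12). Nos1 was thus higher in N18 than in BV2 and Nos2 higher in BV2 than in N18, where Nos2 was still above the threshold. Neither nitric oxide nor cGMP was measured. Npr1, the receptor cyclase for atrial natriuretic peptide, had levels of 1.95, 2.09, 1.73 and 2.12 in N18 and 0.07, 0.11, -0.06 and -0.06 in BV2 and differed by 1.62 ± 0.09 (SE; limma, adjusted p = 3.20e-09), at least 1.9-fold higher.

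Of 9 G protein genes that act on adenylyl cyclase, 5 were called higher (55.6%, against 25.8% of all) and 2 lower (22.2%, against 36.1%) in N18, and the shares rest on few genes. Gnao1, the Go subunit abundant in neurons, had levels of 3.28, 3.60, 3.29 and 3.51 in N18 and 0.94, 0.68, 1.15 and 1.04 in BV2 and differed by 1.89 ± 0.12 (SE; limma, adjusted p = 7.80e-09). Of 9 genes known to be induced by cAMP, 2 were called higher (22.2%) and 5 lower (55.6%), against the same shares of all genes, but relative to the seminal proteins it was 3 and 3, so no direction is read from them. Junb, one of these and an immediate early gene that many other stimuli induce as well, had levels of 4.94, 4.24, 3.81 and 4.59 in BV2 and 2.56, 2.72, 2.08 and 2.07 in N18 and differed by -2.65 ± 0.13 (SE; limma, adjusted p = 7.58e-10). Vasp, an actin-binding substrate of PKA and PKG, had levels of 5.05, 4.49, 4.24 and 4.66 in BV2 and 3.83, 4.02, 3.26 and 3.19 in N18 and differed by -1.67 ± 0.14 (SE; limma, adjusted p = 1.32e-07).

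Abcc4, a transporter that exports cyclic nucleotides, was above the threshold in BV2 only. Its levels were 1.39, 1.15, 1.01 and 1.40 in BV2 and -0.27, 0.09, -0.08 and -0.27 in N18, and the difference was -1.66 ± 0.10 (SE; limma, adjusted p = 4.43e-09), at least 1.4-fold higher in BV2. Sik3, a salt-inducible kinase that PKA inhibits, was at 4.28, 3.69, 3.76 and 3.82 in BV2 and 3.19, 3.32, 2.80 and 3.15 in N18 and differed by -1.41 ± 0.12 (SE; limma, adjusted p = 1.54e-07). Of the CREB family and its coactivators, 1 of 8 was called higher (12.5%, against 25.8% of all genes and targets) and 2 lower (25%, against 36.1%). None was past a difference of 1, and relative to the seminal proteins 3 were called higher and 0 lower. Of the 5 Rap GTPases on which the Rapgef proteins act, 2 were called higher (40%, against 25.8% of all) and 3 lower (60%, against 36.1%). The 10 genes of this list whose values are given here kept direction and call under each of the 17 alternatives.

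The comparisons with AtT20 share their BV2 or N18 plates with the comparison above and their AtT20 plates with each other, and the balance of their calls moved with the scaling. Against BV2, 54 of the 62 members were called, 41 higher in AtT20 (43.6% of all genes and targets were called higher) and 13 lower (24.9% of all), but relative to the seminal proteins it was 20 and 20, and without normalization 48 and 8. The median difference of all genes was 0.18, -0.28 and 1.08 in the same order, and higher calls were 63.7%, 25.4% and 86.7% of all calls. Past a difference of 1 and above the threshold in at least 1 line, 11 were higher (11.8% of all) and 9 lower (10.5%). Against N18, 48 were called, 29 higher (46.5% of all) and 19 lower (26.7%), but 14 and 37 relative to the seminal proteins and 33 and 16 without normalization, with a median of all genes of 0.23, -0.54 and 0.85 and a share of higher calls of 63.5%, 21.3% and 76.2%. Past a difference of 1, 12 were higher (15.0% of all) and 10 lower (12.5%). The shares of the members called higher than N18 (46.8%) and of all genes were close.

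On the plates labelled AtT20 the subunits of PKA other than Prkaca were below the threshold. Only 35.0% of all genes and targets were above it there, and the subunits are few. Prkar1a differed by -4.43 ± 0.18 (SE; limma, adjusted p = 7.13e-10) from N18, at least 12.5-fold lower, and by -1.45 ± 0.18 (SE; limma, adjusted p = 9.06e-06) from BV2, at least 1.5-fold lower. Prkacb differed by -2.27 ± 0.12 (SE; limma, adjusted p = 4.97e-09) from N18 and by -2.00 ± 0.11 (SE; limma, adjusted p = 3.33e-09) from BV2, at least 2-fold and at least 1.7-fold lower, although 1 of its 3 probes showed nearly no difference from either line (-0.13 and 0.02). Prkar2a differed by -1.42 ± 0.21 (SE; limma, adjusted p = 3.71e-05) from BV2, at least 1.4-fold lower. None of the 4 regulatory subunits was above the threshold on these plates, while Prkaca was above it with all 3 probes. The measured genes of all cells had a mean level of 2.36 to 3.41 on these plates, against 4.56 to 5.14 in BV2 and 5.19 to 5.45 in N18, and their part in the low PKA levels was not tested.

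Among the 5 largest differences in this direction were also members that were high in N18 or in BV2. Akap12 differed by -4.60 ± 0.12 (SE; limma, adjusted p = 4.45e-11) from N18, Gucy1b1 by -2.22 ± 0.12 (SE; limma, adjusted p = 5.45e-09) and Adcy6 by -1.93 ± 0.12 (SE; limma, adjusted p = 2.07e-08). Against BV2, Rapgef5 differed by -1.80 ± 0.11 (SE; limma, adjusted p = 1.47e-08) and Adcy7 by -1.64 ± 0.12 (SE; limma, adjusted p = 6.58e-08). These 5 values kept direction and call under all alternatives that were run.

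Of the 5 members with the largest differences in the other direction, Adcy3 had all of its 3 probes above the threshold on the plates labelled AtT20 and Pde3b, Rapgef4, Pde7b and Akap3 had 1 of 3. Adcy3 had levels of 3.08, 2.84, 1.53 and 1.56, and 0.85, 0.86, 1.13 and 0.94 in BV2 and 0.61, 0.91, 0.83 and 0.81 in N18. On the AtT20 plates, plates 1 and 2 were above plates 3 and 4, and the differences were 2.13 ± 0.17 (SE; limma, adjusted p = 1.11e-07) from BV2 and 2.60 ± 0.16 (SE; limma, adjusted p = 2.13e-08) from N18. Single probes differed from BV2 by 0.35 to 3.43. Only 1 of the 3 separated the AtT20 from the BV2 plates, and all 3 separated them from N18. In BV2 all 3 were above the threshold too. Relative to the seminal proteins the differences were 1.31 and 1.46, and with the median of the probes 0.67 and 1.19, and they were called under both.

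Pde3b, the phosphodiesterase of fat and liver cells that insulin activates, had levels of 2.27, 1.90, 1.12 and 1.22 on the plates labelled AtT20, -0.03, -0.13, -0.12 and -0.10 in BV2 and 0.01, -0.10, -0.05 and -0.07 in N18. The differences were 2.23 ± 0.12 (SE; limma, adjusted p = 3.56e-09) and 2.48 ± 0.12 (SE; limma, adjusted p = 3.59e-09), but 1 of 3 probes was above the threshold, the others were near 0, and with the median of the probes the differences were 0.07 and 0.10 and were not called. Rapgef4, which encodes an EPAC protein of brain and endocrine cells, had levels of 2.07, 1.68, 0.88 and 1.41, 0.43, 0.37, 0.20 and 0.10 and 0.54, 0.46, 0.37 and 0.57 in the same order. The differences were 1.89 ± 0.12 (SE; limma, adjusted p = 1.60e-08) and 2.08 ± 0.12 (SE; limma, adjusted p = 9.40e-09), again with 1 of 3 probes above the threshold, and fell to 0.45 and 0.54 with the median of the probes, where they were still called.

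Pde7b, a cAMP-specific enzyme, had AtT20 levels of 0.68, 1.57, 1.02 and 1.22, and its differences were 1.66 ± 0.18 (SE; limma, adjusted p = 3.06e-06) from BV2 and 1.96 ± 0.19 (SE; limma, adjusted p = 1.31e-06) from N18. It too had 1 probe of 3 above the threshold, and the second difference was lost with the median of the probes (0.28). Akap3 had AtT20 levels of 2.13, 3.55, 2.50 and 3.44 through 1 probe of 3, with differences of 1.51 ± 0.29 (SE; limma, adjusted p = 0.000476) and 2.32 ± 0.28 (SE; limma, adjusted p = 9.46e-06). Both were lost with the median of the probes, the first at 0.03 and the second at 0.12, and the first also relative to the seminal proteins. Of the members above the threshold on the plates labelled AtT20, 6 of 26 were kept under all 7 other ways of calling that were run (Adcy3, Prkaca, Akap8l, Pde6d, Pde6g and Pde9a), against 17 of 28 in BV2 and 27 of 37 in N18.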

How the data were processed

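Gene expression was measured on 12 single-color NimbleGen arrays, 4 plates for each of 3 mouse cell lines, with the plates grown and extracted separately. The deposited files hold log2 values of Cy3 intensity for 72000 probes, which the authors extracted with NimbleScan. No background subtraction or normalization between arrays was found in them. Targets (25631) were named through RefSeq accessions (69.4% matched, 17277 genes), and targets of a gene were averaged, which left 25128 genes and unnamed targets. Groups came from the labels.

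Probes were averaged on the linear scale. The threshold follows the study's statistical methods, with 10 seminal proteins. Lines were compared in pairs, on the 8 arrays of a pair, by quantile normalization of the probes and limma 3.58.1 in R 4.3.3 (lmFit, eBayes with a trend), with Benjamini-Hochberg adjustment over 25128 genes and targets and calls at an adjusted p under 0.05. Where a gene was above the threshold in 1 line of a pair, the fold is a lower bound against the threshold of the other line, rounded down and the smallest over 3 scales (quantile-normalized, unnormalized, and relative to the seminal proteins). The bound has no error term and does not cover the other alternatives. In N18 against BV2 the lowest differences over the alternatives fell below it for Prkar1b (2.27), Prkar2b (1.33), Pde10a (1.50), Nos1 (2.47) and Prkg2 (0.78, all log2). Saturated values did not occur in the members. The result of 1 marker list is not reported here in full. Per-plate values and the test are given for members called with a difference of at least 1 and above the threshold in at least 1 line (for N18 against BV2 at most 12 in each direction and every PKA subunit, for AtT20 the 5 largest in each direction) and for at most 5 wider genes in each direction; other members with values were chosen after these were seen. The members and lists were chosen with earlier results of these data known.

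Alternatives were the mean or median of log2 probes, the highest target of a gene, olfactory receptor genes as controls, 3 SD, all 4 plates, at least 2 probes, normexp (offset 50), levels relative to the seminal proteins or not normalized at all, all 12 arrays in 1 fit, a replicate block, a filter on the threshold, a minimum difference of 1, and leaving out each plate. Same-numbered plates of different lines deviated together with r of -0.11 to 0.32 (12 pairs), others with r of -0.49 to 0.36 (36 pairs), so the numbers were not taken to pair the plates. The steps were tested on simulated data. The number of arrays limits the precision. Other tables and the plots were made in Python 3.11.15 (pandas 2.3.3, numpy 2.4.6, matplotlib 3.10.9, scipy 1.17.1).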

Additional observations from a re-analysis of the deposited data

Results flagged for a closer look

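In 8 of 186 sets of 4 plates (62 members in 3 lines), the highest or lowest plate was set off from the other 3 by more of the range than Dixon's critical value at 95% allows; chance flags about 1 in 20 groups. Among members above the threshold, this was Pde9a in BV2, where plate 2 had a level of 0.69 and the others 1.12 to 1.19. The other 7 lay below the threshold: Gucy1a1 in N18 with 0.23 on plate 1 (the others 0.50 to 0.54), Gucy1b2 in BV2 with -0.050 on plate 4 (0.27 to 0.33), Gucy2e in N18 with 0.15 on plate 1 (-0.08 to -0.05), Pde6h in N18 with -0.44 on plate 4 (-0.29 to -0.28), Gucy1b1 in AtT20 with -0.29 on plate 4 (-0.16 to -0.15), Akap9 in AtT20 with -0.19 on plate 1 (-0.13 to -0.12) and Adcy10 in BV2 with 0.033 on plate 2 (-0.05 to -0.04).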

How the results depend on the processing

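The number of members above the threshold in AtT20, 26, was 13 with the median of log2 probes, 12 with olfactory receptor genes as controls, 17 at 3 SD, 14 with all 4 plates and 11 with at least 2 probes above the threshold. In BV2 it was 17 with the olfactory receptor genes. With the median of log2 probes the AtT20 levels of Adcy9, Pde10a, Pde3b and Pde7b turned to -0.011, -0.023, -0.13 and -0.056. In N18 against BV2, a difference of at least 1 left 13 members called, 10 higher and 3 lower, and 5 were lower without normalization and 8 relative to the seminal proteins. There Prkar2a turned to 0.28 and 0.31 and Pde4b to 0.15 and 0.18 under the same 2 settings, with the median of log2 probes Adcy10 turned to 0.0084, Pde7b to 0.24 and Pde8b to 0.13, and Prkacb ranged from -0.024 to 0.066 with 1 plate left out. In AtT20 against BV2, a difference of at least 1 left 20 called, 11 of them higher. Higher calls there were 20 relative to the seminal proteins, 27 with the median of probes and 24 among genes above the threshold, and lower calls were 8 without normalization and 20 relative to the seminal proteins. In AtT20 against N18, a difference of at least 1 left 23, 13 higher and 10 lower. Higher calls there were 14 relative to the seminal proteins, 19 with the median of probes and 19 among genes above the threshold, and lower calls were 37 relative to the seminal proteins. The cause was not tested.

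With the replicate block, 51 members were called in N18 against BV2, 54 in AtT20 against BV2 and 50 in AtT20 against N18. The numbers do not pair the plates. With each plate left out, all 28 calls in BV2 were kept, 35 of 37 in N18 (not Adcy3 and Pde6a) and 20 of 26 in AtT20 (not Akap1, Akap14, Pde4d, Pde6c, Prkg1 and Prkg2). Small differences near a threshold are limited by the signal over background, which the intensities include.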
